A study of Mus musculus with 8 samples.

Results

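Receptors on the surface of hematopoietic stem and progenitor cells were followed across bone marrow and fetal liver of mice with and without type XVIII collagen. The group was defined by a list of 9 genes: Slamf1, Cd48, Kit, Ly6a, Cd34, Procr, Flt3, Tek and Cxcr4. Probe sets were taken where the annotation of the Affymetrix mouse genome array names 1 of these genes and no other. This gave 11 probe sets for 8 of the 9 genes, out of 18194 genes on 45101 probe sets in all, and Ly6a was not analysed here. Slamf1 was covered by 3 probe sets, Kit by 2 and each of the others by 1.

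Total RNA came from 4 groups with 2 arrays each. They were bone marrow of 3-month-old Col18a1-/- males, bone marrow of 3-month-old Col18a1+/+ males, E14.5 fetal liver of Col18a1-/- embryos and E14.5 fetal liver of Col18a1+/+ embryos, all of strain C57B6/J. Marrow was flushed from femurs and tibias, livers were dissected, and both were made into filtered cell suspensions with no sort described. Tissue of 2 littermates was pooled before RNA extraction for each array, and the sex of the embryos is undetermined per the labels. How the null allele was made is not described there. The series text uses the wild-type name for both genotypes in 1 place, and genotypes were taken from the sample labels.

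These receptors are the handles by which stem and progenitor cells are isolated, and several also carry the signals that keep the cells in place or dividing. In adult mouse marrow, stem cells are SLAMF1-positive (CD150) and CD48-negative, whereas most CD48-positive cells are mature blood cells and committed progenitors. KIT and FLT3 are receptor tyrosine kinases for stem cell factor and FLT3 ligand, TEK (TIE2) is the angiopoietin receptor and is abundant on endothelium, and CXCR4 is the receptor of the chemokine CXCL12. CD34 is a sialomucin of progenitors and endothelium, and PROCR (EPCR) is the endothelial protein C receptor, which also marks stem cells. Stem cells are rare in both tissues, so in unsorted suspensions each level sums over all cells that carry the transcript, and fewer cells of a type cannot be told apart from less RNA per cell.

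Slamf1 and Cd48 lie in the SLAM gene cluster of mouse chromosome 1, in the order Cd244a, Ly9, Slamf7, Cd48, Slamf1, Cd84 and Slamf6 in RefSeq. Their promoter windows are shown because these cluster members of the same strand had unlike profiles over the arrays. Each window runs from 250 bases before to 50 bases after the annotated start (RefSeq, GRCm38.p6, plus strand), Slamf1 at chr1:171766882-171767181 and Cd48 at chr1:171681742-171682041, with matches to the searched motifs in capitals.
Slamf1 promoter: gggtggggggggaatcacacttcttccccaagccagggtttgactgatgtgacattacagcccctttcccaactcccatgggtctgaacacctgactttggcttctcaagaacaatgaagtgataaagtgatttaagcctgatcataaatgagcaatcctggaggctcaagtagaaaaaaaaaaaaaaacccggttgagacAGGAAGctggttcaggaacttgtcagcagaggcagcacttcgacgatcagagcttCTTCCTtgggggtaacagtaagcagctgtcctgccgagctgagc
Cd48 promoter: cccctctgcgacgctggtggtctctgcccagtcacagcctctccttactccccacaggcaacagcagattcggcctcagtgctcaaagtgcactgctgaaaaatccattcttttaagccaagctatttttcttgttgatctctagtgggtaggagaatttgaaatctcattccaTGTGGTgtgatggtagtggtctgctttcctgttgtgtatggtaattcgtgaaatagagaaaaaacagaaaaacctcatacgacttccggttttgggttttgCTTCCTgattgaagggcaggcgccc
The motifs, searched on both strands, were AGATAA (bound by GATA factors), AGGAAG (ETS factors) and TGTGGT (RUNX factors), and none of the printed matches overlapped another. The Slamf1 window held 2 ETS matches, 0 GATA matches and 0 RUNX matches. The Cd48 window held 1 ETS match, 1 RUNX match and 0 GATA matches. Of 32851 promoter windows of 300 bases, 35.4% held the ETS letters, 16.8% the RUNX letters and 11.2% the GATA letters.

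The arrays of 1 group were alike, with correlations of 0.992 to 0.997 across genes, and median intensities lay between 40.8 and 42.6. The targeted gene Col18a1, on chromosome 10, was lower in knockout arrays, with differences of -2.03 ± 0.13 (SE, log2) in bone marrow (adjusted p = 0.000787, limma) and -1.003 ± 0.13 in fetal liver (adjusted p = 0.0315, limma). Its second, dimmer probe set gave -1.34 ± 0.13 in marrow (adjusted p = 0.0227, limma over all 45101 probe sets) and -1.62 ± 0.13 in fetal liver (adjusted p = 0.0034), so the probe sets give opposite orders of the tissues. Whether either lies in the deleted part is unknown here. In fetal liver, Xist stood at 4.97 and 4.77 on the knockout arrays, against 11.04 and 11.22 on the wild-type arrays, and the Y-linked Eif2s3y at 9.38 and 9.42 in knockout, against 3.29 and 3.00 in wild-type. Genotype and sex of the embryos therefore cannot be told apart in fetal liver. The hepatoblast gene Afp averaged 4.82 in knockout and 4.46 in wild-type bone marrow, against 14.62 in knockout and 14.50 in wild-type fetal liver. The B cell gene Cd79b averaged 11.36 and 11.49 in knockout and wild-type bone marrow, against 5.40 and 5.96 in knockout and wild-type fetal liver.

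**Figure D1:**
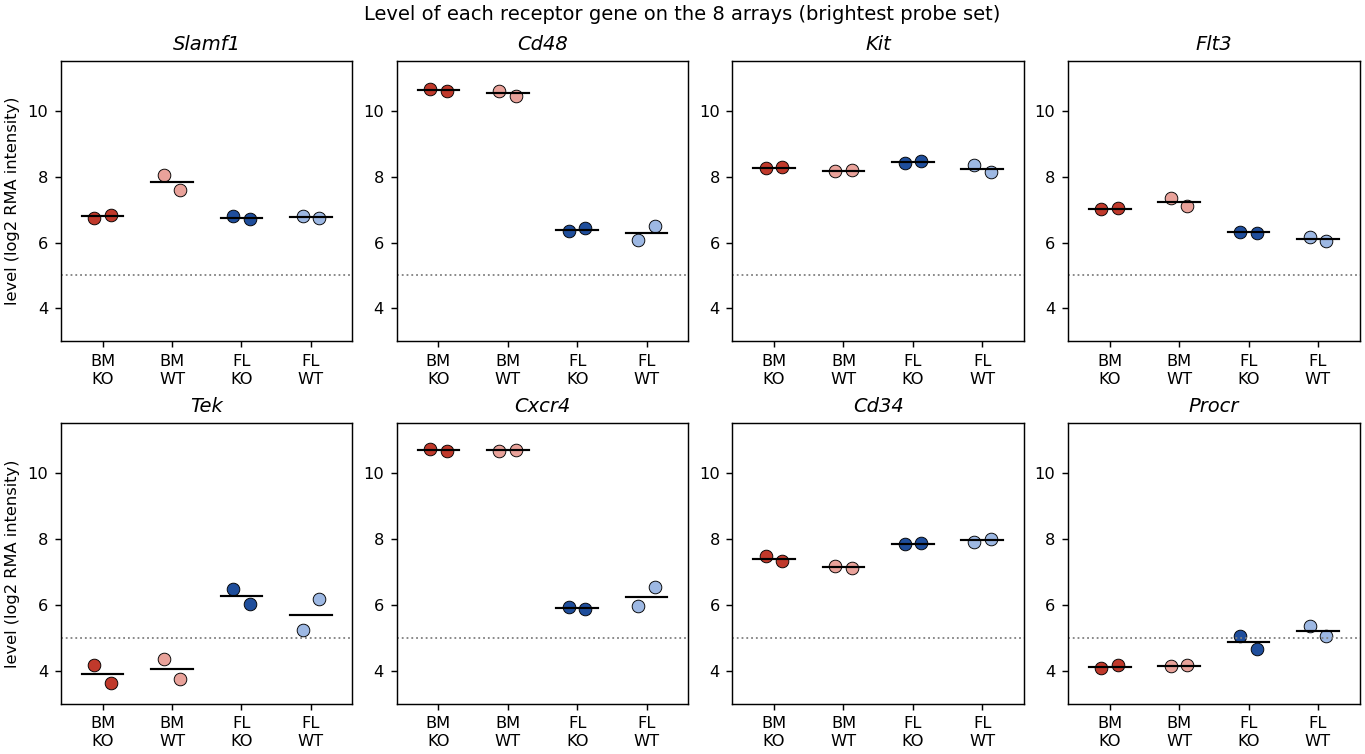
Level (log2 RMA intensity) of the 8 receptor genes on each array, for bone marrow (BM) and fetal liver (FL) of Col18a1 knockout (KO) and wild-type (WT) mice; points are arrays, bars are means of 2 arrays, and the dotted line is the level of 5 used as a filter. Slamf1 is high on the wild-type bone marrow arrays, at 8.06 and 7.60, and lies between 6.72 and 6.83 on the other 6.

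The first comparison concerned loss of Col18a1 in adult bone marrow. Of the 8 receptor genes, 1 was called at an adjusted p under 0.05 (limma, Benjamini-Hochberg over 13136 genes), where 0.411% of all tested genes were called in either direction and 0.365% as lower. That gene was Slamf1, a self-binding receptor of the SLAM family. Its level was 6.75 and 6.83 on the knockout arrays, against 8.06 and 7.60 on the wild-type arrays (log2). The groups did not overlap, and the wild-type arrays were 0.46 apart while the knockout arrays were 0.08 apart. Slamf1 fell by 1.04 ± 0.14 (SE; 95% interval of the difference -1.36 to -0.72, adjusted p = 0.023, limma), which is 2.05-fold lower in knockout marrow. The level in knockout marrow was close to that in fetal liver, where the 4 arrays of both genotypes lay between 6.72 and 6.79. The Slamf1 call was lost in 11 of the 19 alternatives run, while its direction held in all 19. With the replicate number as a block the adjusted p was 0.0574, and with only the 4 bone marrow arrays it was 0.126 (limma). The call was also lost when any 1 array other than wild-type bone marrow replicate 2 was left out. Without wild-type bone marrow replicate 1, on which Slamf1 was highest, the difference was -0.81 (adjusted p = 0.0966, limma). Without knockout bone marrow replicate 1 or replicate 2 it was -0.998 (adjusted p = 0.207) or -1.08 (adjusted p = 0.153, limma). Leaving out a fetal liver array does not touch the marrow difference of -1.04, and the adjusted p was then 0.0521 (either wild-type array) or 0.0603 (either knockout array). The mean of the Slamf1 probe sets differed by -0.64 (adjusted p = 0.118, limma).

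The other Slamf1 probe sets were dimmer. On the second, the levels were 5.20 and 5.11 in knockout bone marrow, against 6.06 and 5.60 in wild-type bone marrow, and 5.02 to 5.27 on the 4 fetal liver arrays. Its groups did not overlap either, and its difference in bone marrow was -0.68 ± 0.15 (adjusted p = 0.405, limma over all 45101 probe sets), where that of the brightest was -1.04 ± 0.15 (adjusted p = 0.056 in that fit). The third lay under the filter level of 5 on all 8 arrays, at 4.23 and 4.45 in knockout bone marrow, against 4.50 and 4.602 in wild-type bone marrow. Its difference was -0.21 ± 0.24 (adjusted p = 0.99998, limma over all probe sets). The third stood in fetal liver at 4.39 and 4.22 in knockout, against 4.22 and 3.34 in wild-type, where 1 low array gave a difference of 0.52 ± 0.24 (adjusted p = 0.328, limma). All 3 probe sets were thus lower on both knockout marrow arrays than on both wild-type ones, by amounts that shrank with the brightness of the probe set.

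**Figure D2:**
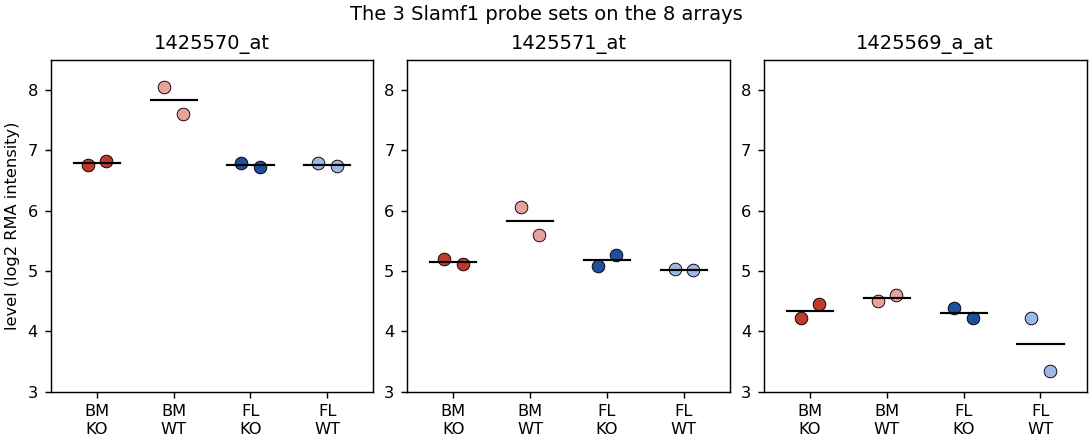
Level (log2 RMA intensity) of the 3 Slamf1 probe sets on the 8 arrays, for bone marrow (BM) and fetal liver (FL), knockout (KO) and wild-type (WT); points are arrays and bars are means of 2. The wild-type bone marrow arrays are the highest on each, by less on the dimmer probe sets.

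Neighbours of Slamf1 in the cluster did not share this difference at the threshold. Cd48, the GPI-anchored ligand of CD244 and CD2, stood at 10.65 and 10.59 in knockout marrow, against 10.59 and 10.45 in wild-type marrow, a difference of 0.10 ± 0.14 (interval -0.22 to 0.42; adjusted p = 0.976, limma). Of the other SLAM family receptors, 6 were tested and 0 were called in either direction (limma), 1 at an unadjusted p under 0.05. Ly9, a lymphocyte receptor, differed most among them, by -0.55 ± 0.17 (adjusted p = 0.474, limma), with 6.84 and 6.999 in knockout marrow and 7.53 and 7.41 in wild-type marrow. Cd84, the next gene on the other side of Slamf1, differed by -0.02 ± 0.11.

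Megakaryocyte markers were lower on the same arrays as Slamf1. Of 8 tested markers 7 were called lower in knockout marrow (limma) and all 8 were negative. Their median difference was -1.16, where the median of all tested genes was 0.01. The summed intensity of these 8 markers was 7024.3 and 7405.8 on the knockout arrays, against 16899.4 and 14134.2 on the wild-type arrays, and it was also higher on wild-type replicate 1 than on replicate 2. The endothelial, stromal, B lineage, neutrophil and monocyte sums had this order of the wild-type replicates too. It was reversed for the erythroid, mast cell, T and NK cell and hepatoblast sums. On the fetal liver arrays the megakaryocyte sum lay between 7267.2 and 7282.9 in knockout and between 7206.1 and 7368.4 in wild-type. Among the markers, Itga2b (CD41) fell by 1.19 ± 0.14 (adjusted p = 0.0126, limma) and Gp9 differed by -0.82 ± 0.14 (adjusted p = 0.0644, limma). The part of the megakaryocyte markers in the Slamf1 difference was not tested.

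**Figure D3:**
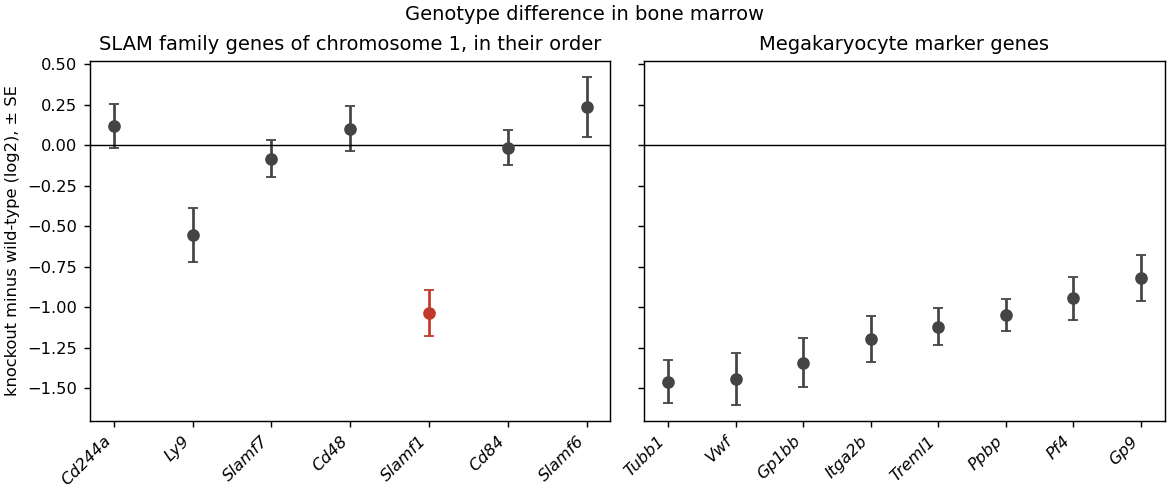
Genotype difference in bone marrow (knockout minus wild-type, log2, with the SE of the fit) for SLAM family genes in their order on chromosome 1 and for megakaryocyte markers. Slamf1, at -1.04, lies within the range of the megakaryocyte markers, -1.46 to -0.82, while its cluster neighbours Cd48 and Cd84 lie at 0.10 and -0.02.

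The genes with the profile most like that of Slamf1 over the 8 arrays were Timp3, an inhibitor of matrix metalloproteinases, Gp1bb, a subunit of the platelet receptor for von Willebrand factor, and Myl9, a myosin light chain. After each gene was centred on its own mean, their levels differed from those of Slamf1 by a root mean square of 0.0935, 0.136 and 0.138 (log2), where the median over all genes compared was 0.57. This is a description over arrays that share tissue and genotype.

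The remaining 7 receptor genes were not called in bone marrow. Cd34 differed most, standing at 7.46 and 7.31 in knockout marrow, against 7.18 and 7.11 in wild-type marrow. The groups did not overlap, and the difference was 0.24 ± 0.09 (interval 0.03 to 0.45; adjusted p = 0.671, limma). Kit stood at 8.25 and 8.28 in knockout marrow, against 8.17 and 8.19 in wild-type marrow, a difference of 0.09 ± 0.10 (interval -0.13 to 0.31; adjusted p = 0.961, limma). Flt3, which is carried by lymphoid-primed progenitors, stood at 7.01 and 7.05 in knockout marrow, against 7.34 and 7.11 in wild-type marrow, a difference of -0.19 ± 0.10 (adjusted p = 0.84, limma). Cxcr4 differed by 0.02 ± 0.16 (interval -0.36 to 0.39) at a high level, with 10.73 and 10.65 in knockout marrow and 10.66 and 10.69 in wild-type marrow. At an unadjusted p under 0.05 there were 2 genes, Slamf1 and Cd34, where 6.74% of all tested genes passed. In 5 of the 8 genes the arrays of the genotypes did not overlap, which was also so for 43.1% of all tested genes.

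Tek and Procr lay under the filter level of 5 on every bone marrow array and were tested only because of fetal liver. Procr stood at 4.09 and 4.16 in knockout marrow, against 4.14 and 4.16 in wild-type marrow. Tek stood at 4.17 and 3.63 in knockout marrow, against 4.35 and 3.75 in wild-type marrow. The arrays of 1 group were up to 0.60 apart for Tek, and the interval of its difference ran over -0.91 to 0.60, so a smaller difference was not detectable there.

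Genes that act with these receptors did not pass either in knockout bone marrow. Of the ligands and binding partners 13 of 16 were tested, and 0 were called, 3 passing at an unadjusted p under 0.05, with 11 negative, 2 positive and a median of -0.24. Kitl, which encodes stem cell factor, stood at 8.27 and 8.18 in knockout marrow, against 8.82 and 8.27 in wild-type marrow. Cxcl12 stood at 9.72 and 9.87 in knockout marrow, against 10.36 and 9.94 in wild-type marrow (difference -0.35 ± 0.17, adjusted p = 0.797, limma). Angpt1, the activating ligand of TEK, stood at 7.79 and 7.50 in knockout marrow, against 8.19 and 7.76 in wild-type marrow. Wild-type replicate 1 was the highest marrow array for each of these ligands, and the genotypes were apart on every array only for Cxcl12. Of 24 tested other stem and progenitor genes 0 were called (3 unadjusted), and their median was -0.004. The lowest adjusted p in that list were those of Myct1, at -1.02 ± 0.17 (adjusted p = 0.0554, limma), and Esam, at -0.92 ± 0.17 (adjusted p = 0.0854, limma). Both are also known from endothelium and were named after their values were seen. Their differences lie within the range of the megakaryocyte markers, -1.46 to -0.82. The tested endothelial markers other than Esam ran from -0.61 (Cdh5) to 0.31 (Robo4). The part of either cell type was not tested. Of 18 tested signal transducers 0 were called (2 unadjusted), 15 being negative, with a median of -0.10.

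Of 9 tested endothelial markers 0 were called in bone marrow (limma, 4 unadjusted) and 8 were negative, and their summed intensity was 621.1 to 629.2 in knockout, against 712 to 840.4 in wild-type marrow. Of 7 tested stromal markers 2 were called lower (limma) and all 7 were negative, with a median of -0.35. Their sum was 3094.7 to 3137.2 in knockout, against 4300.2 to 5381.5 in wild-type marrow. Kitl and Cxcl12 are themselves in the stromal list. The part of these cells in the ligand levels was not tested.

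In fetal liver, loss of Col18a1 was accompanied by 0 calls among the 8 receptor genes, where 0.32% of all tested genes were called (limma). At an unadjusted p under 0.05 there was 1, Procr, where 22% of all tested genes passed. Procr stood at 5.06 and 4.65 in knockout liver, against 5.36 and 5.04 in wild-type liver, a difference of -0.35 ± 0.15 (adjusted p = 0.226, limma), and the arrays of the genotypes overlapped. Slamf1 stood at 6.79 and 6.72 in knockout liver, against 6.79 and 6.73 in wild-type liver, which bounds its difference to between -0.33 and 0.32.

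Among the kinases, Kit stood at 8.42 and 8.48 in knockout liver, against 8.34 and 8.14 in wild-type liver, a difference of 0.21 ± 0.10 (adjusted p = 0.245, limma). Flt3 stood at 6.31 and 6.30 in knockout liver, against 6.16 and 6.04 in wild-type liver, a difference of 0.21 ± 0.10 (adjusted p = 0.267, limma). For both, the arrays of the genotypes did not overlap. Tek stood at 6.48 and 6.02 in knockout liver, against 5.22 and 6.16 in wild-type liver, where a gap of 0.94 between the wild-type arrays exceeded the difference of 0.56. A second, dimmer Kit probe set stood at 5.38 and 4.95 in knockout and at 4.96 and 4.89 in wild-type liver, with overlapping groups.

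Cxcr4 stood at 5.91 and 5.86 in knockout liver, against 5.96 and 6.53 in wild-type liver, a difference of -0.36 ± 0.16 (adjusted p = 0.242, limma) that was -0.07 without wild-type replicate 2. Cd34 stood at 7.83 and 7.86 in knockout liver, against 7.91 and 7.98 in wild-type liver (difference -0.10 ± 0.09). Cd48 differed by 0.10 ± 0.14 there, with 6.34 and 6.43 in knockout and 6.07 and 6.50 in wild-type liver. In 4 of the 8 genes the groups did not overlap, against 50.1% of all tested genes. Of the ligands and partners, the other stem and progenitor genes and the signal transducers, 0 of 13, 0 of 24 and 0 of 18 were called in fetal liver (limma), and 3, 5 and 4 passed at an unadjusted p under 0.05. Pik3r1, the regulatory subunit of PI3-kinase, had the lowest adjusted p among the transducers, at 0.51 ± 0.09 (adjusted p = 0.0633, limma). Each of these fetal liver values carries the sex-linked difference between the pools.

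**Figure D4:**
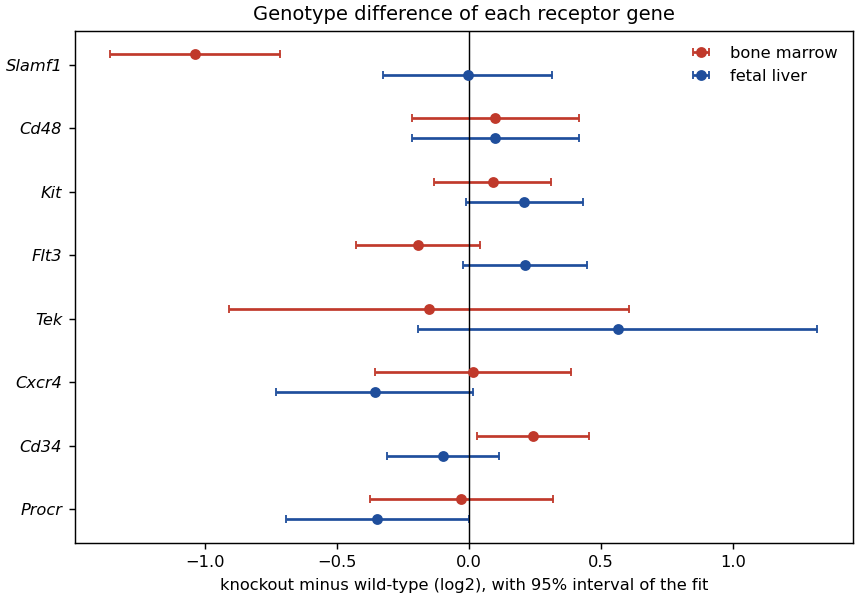
Difference between knockout and wild-type arrays (log2) for each receptor gene in bone marrow and fetal liver; points are the fitted differences and lines their 95% intervals, 2 arrays per group. Slamf1 in bone marrow, at -1.04, is the called gene, and all other differences lie between -0.36 and 0.56.

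The interaction asked whether the genotype difference itself differed between bone marrow and fetal liver. It was called for 0 of the 8 genes (limma), where 0.0914% of all tested genes were called. At an unadjusted p under 0.05 there were 3 genes, where 15.7% of all passed. For Slamf1 it was -1.03 ± 0.20 (interval -1.49 to -0.58; unadjusted p = 0.000693, adjusted p = 0.103, limma). Without wild-type bone marrow replicate 2 it was -1.26 and was called (adjusted p = 0.0373, limma), and over all alternatives the adjusted p lay between 0.0373 and 0.326. Flt3, at -0.41 ± 0.15, and Cd34, at 0.34 ± 0.13, also passed without adjustment (adjusted p = 0.26 and 0.279, limma). This test too includes the sex-linked difference of the fetal liver pools.

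The largest differences of these receptors were between the tissues. Set against fetal liver of the same genotype, bone marrow had higher levels of Cd48, Cxcr4 and Flt3 and lower levels of Cd34 in both genotypes. Procr and Tek were called lower too, but both were under the filter level on all bone marrow arrays and could enter the test only by being higher in fetal liver, so nothing is read from the counts of lower genes. Of all tested genes, 23.3% were called higher and 31.8% lower in both. In knockout arrays 6 of 8 genes were called, 3 higher and 3 lower in bone marrow, where 63.8% of all tested genes were called, 27.1% as higher and 36.6% as lower. In wild-type arrays 7 of 8 were called, 4 higher and 3 lower, where 65.9% were called, 26.8% as higher and 39.2% as lower, so a call between the tissues was common among genes at large. The tissues also differ in stage and in cell content. Wild-type fetal liver arrays had high Xist, whereas knockout fetal liver arrays had Xist levels like those of male bone marrow (4.61 to 5.03). The part of embryo sex in the wild-type tissue differences was not tested.

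Cd48 and Cxcr4 differed by far the most. Cd48 stood at 10.65 and 10.59 in knockout bone marrow, against 6.34 and 6.43 in knockout fetal liver, a difference of 4.24 ± 0.14 (adjusted p = 3.12e-08, limma), or 18.8-fold. In wild-type arrays the difference was the same to 2 decimals (4.24 ± 0.14, adjusted p = 3.13e-08, limma). Cxcr4 was higher in bone marrow by 4.80 ± 0.16 (27.9-fold, adjusted p = 3.92e-08, limma) in knockout and by 4.43 ± 0.16 (21.6-fold, adjusted p = 6.3e-08, limma) in wild-type arrays. Within each tissue the genotypes of either gene were not called apart.

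The genes nearest to Cd48 in profile were Pglyrp1, Ctse and Camp, with root mean square differences of 0.121 to 0.132 (log2). Those nearest to Cxcr4 were Gch1, Xdh and Btla, at 0.16 to 0.176. Markers of the neutrophil and B lineages, with genes of immature stages among them, were also higher on the bone marrow arrays. All 9 tested neutrophil lineage markers and all 9 tested B lineage markers were called higher in bone marrow in both genotypes (limma), although 5 of the B lineage markers reached the filter level (5 on at least 2 arrays) in bone marrow only. The neutrophil sum was 129016.8 to 130930.4 in knockout and 127266.9 to 127554.7 in wild-type marrow, against 10848.1 to 15039.8 in knockout and 11296.2 to 13165.2 in wild-type liver. Other lineages had higher markers in bone marrow too. All 5 tested mast cell and basophil markers were called higher in both genotypes, 1 having reached the filter level in 1 tissue only. Of 10 monocyte and macrophage markers 5 were called higher in each genotype, with 2 lower in knockout and 3 in wild-type arrays. Of 5 T and NK cell markers 2 were called higher in each genotype, with 0 lower in knockout and 1 in wild-type arrays. The part of any of these cells in the Cd48 and Cxcr4 differences was not tested.

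Flt3 and Slamf1 were higher in wild-type bone marrow by smaller amounts. Flt3 stood 0.72 ± 0.10 higher in bone marrow than in fetal liver in knockout arrays (adjusted p = 0.000291, limma) and 1.13 ± 0.10 higher in wild-type arrays (adjusted p = 1.61e-05, limma). Slamf1 was 0.04 ± 0.14 higher in knockout bone marrow than in knockout fetal liver (interval -0.28 to 0.36; adjusted p = 0.831, limma), with overlapping arrays. In wild-type arrays it was 1.07 ± 0.14 higher in bone marrow (2.10-fold, adjusted p = 0.000159, limma), and the groups did not overlap. Megakaryocyte markers were called higher in bone marrow in 5 of 8 and lower in 0 in wild-type arrays, while in knockout arrays 1 was called higher and 3 were called lower (limma). The difference between these tissue differences is the interaction given above, which missed the threshold.

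Kit was not called between the tissues in either genotype. Its arrays overlapped in wild-type, with 8.17 and 8.19 in bone marrow and 8.34 and 8.14 in fetal liver (interval of the difference -0.28 to 0.16). In knockout arrays its difference was -0.18 ± 0.10 (adjusted p = 0.127, limma). Over all 8 arrays the brighter Kit probe set ranged from 8.14 to 8.48, the narrowest range of the 8 genes. KIT is carried by stem and progenitor cells of both tissues, by early erythroid precursors and by mast cells. The erythroid marker sum was 54928.9 to 55289.9 in knockout and 52809.3 to 54668 in wild-type marrow. In liver it was 72813.3 to 76527.4 in knockout and 67319.2 to 69867.7 in wild-type. This sum includes the globin gene Hbb-y, with means of 14.39 in knockout and 14.41 in wild-type liver, against 4.61 and 5.23 in marrow. The other tested erythroid markers differed (bone marrow minus fetal liver) by -0.43 (Epor) to 0.79 (Alas2) in knockout arrays. In wild-type arrays they differed by -0.42 (Epor) to 0.99 (Alas2). The sum without Hbb-y was not computed, so no order of the tissues is read from the sum that includes it. Of 9 tested erythroid markers, 1 was called higher and 3 lower in bone marrow in knockout arrays (limma). In wild-type arrays 3 were called higher and 2 lower (limma). The mast cell and basophil sum was higher in bone marrow. The part of erythroid and mast cells in the Kit level was not tested.

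Cd34, Procr and Tek are carried by endothelial cells as well. Cd34 was lower in bone marrow, with differences of -0.46 ± 0.09 in knockout (adjusted p = 0.00223, limma) and -0.80 ± 0.09 in wild-type arrays (adjusted p = 7.15e-05, limma). Tek and Procr lay under the filter level of 5 on all bone marrow arrays and entered the test through fetal liver, so their levels are given as a description and no test is read from them. Tek averaged 3.90 ± 0.38 in knockout and 4.05 ± 0.42 in wild-type marrow, against 6.25 ± 0.32 in knockout and 5.69 ± 0.67 in wild-type liver (SD, n = 2 each). Procr averaged 4.12 ± 0.05 in knockout and 4.15 ± 0.02 in wild-type marrow, against 4.86 ± 0.29 in knockout and 5.20 ± 0.23 in wild-type liver (SD, n = 2 each). Of 9 tested endothelial markers, 8 were lower in bone marrow in each genotype (limma), and 1 of the 9 reached the filter level in 1 tissue only. Pecam1 ran the other way, called higher in bone marrow by 0.82 ± 0.13 in wild-type arrays (adjusted p = 0.000602, limma). In knockout arrays it differed by 0.32 ± 0.13 (adjusted p = 0.0625, limma). The endothelial sum was 621.1 to 629.2 in knockout and 712 to 840.4 in wild-type marrow. In liver that sum was 2278.4 to 2358.3 in knockout and 2250.8 to 2408.1 in wild-type. Fat4, Fmo1 and Adh1 were the genes nearest to Tek in profile, at root mean square differences of 0.173 to 0.268. The part of endothelial cells in these differences was not tested.

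**Figure D5:**
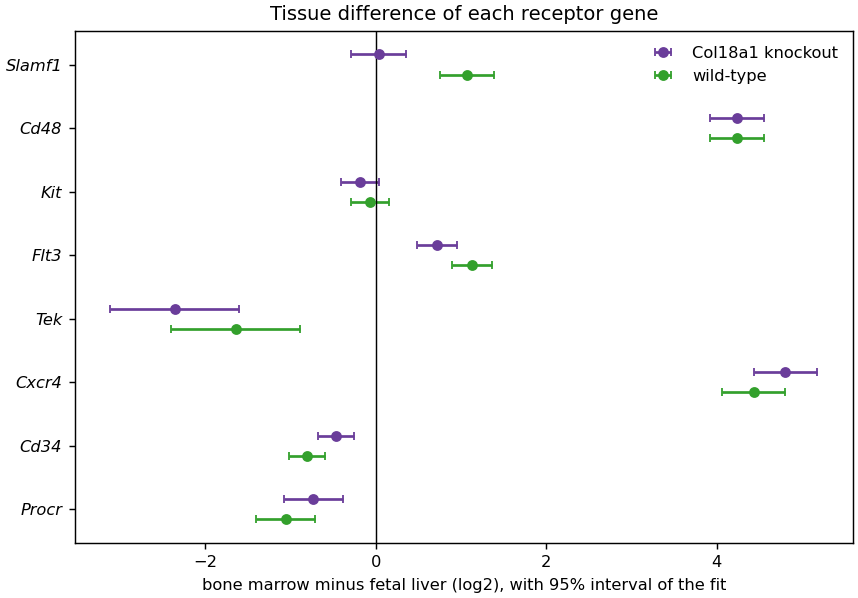
Difference between bone marrow and fetal liver (log2) for each receptor gene in knockout and wild-type arrays; points are the fitted differences and lines their 95% intervals, 2 arrays per group. Cd48 and Cxcr4 lie between 4.24 and 4.80 in both genotypes, and Slamf1 lies at 0.04 in knockout and 1.07 in wild-type arrays.

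Slamf1 was highest in wild-type bone marrow, and its means of 6.79 in knockout marrow, 6.76 in knockout liver and 6.76 in wild-type liver could not be separated by their spread. For Cd48 and Cxcr4 the bone marrow groups stood together above the fetal liver groups, whose means were 6.38 and 6.28 for Cd48 and 5.89 and 6.24 for Cxcr4 in knockout and wild-type liver. Flt3 had means of 7.03 in knockout and 7.22 in wild-type marrow, against 6.31 in knockout and 6.10 in wild-type liver, and the step between the tissues was the one past the threshold. Cd34 was in the opposite order, with 7.39 in knockout and 7.14 in wild-type marrow, against 7.85 in knockout and 7.94 in wild-type liver. Tek and Procr were higher in the fetal liver groups, and Tek was highest in knockout liver (6.25 ± 0.32, SD, n = 2) and Procr in wild-type liver (5.20 ± 0.23, SD, n = 2).

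Profiles over the 8 arrays were closest for Cd34 and Procr, at a root mean square difference of 0.244 after centring, and for Cd48 and Cxcr4, at 0.261, and farthest apart for Cxcr4 and Tek, at 3.33. The gene nearest to Cd34 was Nrde2 (0.0408), that nearest to Procr was Sergef (0.0582), that nearest to Flt3 was Bicral (0.0798) and that nearest to Kit was Bcl2l2 (0.0403). Medians over all genes were 0.359 for Cd34, 0.476 for Procr, 0.584 for Flt3 and 0.289 for Kit. Receptors with small differences lie near many genes by this measure.

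All 6 tested other SLAM family receptors were higher in bone marrow in both genotypes (limma), but 3 of them reached the filter level in bone marrow only, so their direction was set by the filter. Among these was Slamf7, a receptor of plasma cells and NK cells, with means of 7.38 in knockout and 7.46 in wild-type marrow, against 3.77 in knockout and 3.76 in wild-type liver. Cd84, measured above that level in both tissues, was higher by 2.08 ± 0.11 in knockout and 1.92 ± 0.11 in wild-type arrays. Of 9 tested other chemokine receptors 8 were higher in bone marrow in both genotypes, 4 of the 9 having reached the filter level in 1 tissue only. The higher genes included Ccr2, the receptor by which monocytes leave marrow. Ackr3, the scavenging receptor of CXCL12, was the 1 that was lower, and it too passed the filter through 1 tissue, with means of 4.13 in knockout and 4.23 in wild-type marrow, against 7.33 in knockout and 7.90 in wild-type liver.

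Of the 4 other receptor kinases of the Kit and Tie classes, Csf1r, the receptor of macrophage growth factor, was higher in bone marrow in both genotypes, and Pdgfra, Pdgfrb and Tie1 were lower. Tie1, the partner of TEK, reached the filter level in fetal liver only, with means of 3.56 in knockout and 3.75 in wild-type marrow, against 5.70 in knockout and 5.33 in wild-type liver. In the Ly6 family, 3 of 4 tested genes were higher in bone marrow and Ly6h was lower in both genotypes, 2 of the 4 having reached the filter level in 1 tissue only.

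All 13 tested ligands and partners were called between the tissues in both genotypes, 6 higher and 7 lower in bone marrow (limma), but 8 of them reached the filter level in 1 tissue only, which set their direction. Cd2 and Cd244a, which encode binding partners of CD48, reached it in bone marrow only. Cd2 had means of 7.79 in knockout and 7.94 in wild-type marrow, against 4.25 in knockout and 4.11 in wild-type liver. Proc, the protein C gene of hepatocytes whose product binds PROCR, lay near or under that level in marrow, with means of 4.96 in knockout and 4.78 in wild-type marrow, against 9.30 in knockout and 9.40 in wild-type liver. Kitl had means of 8.23 in knockout and 8.54 in wild-type marrow, against 10.01 in knockout and 10.28 in wild-type liver. Cxcl12 ran the other way, with means of 9.80 in knockout and 10.15 in wild-type marrow, against 8.997 in knockout and 9.30 in wild-type liver.

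Among 24 tested other stem and progenitor genes the directions were mixed. In knockout arrays 9 were called higher and 12 lower in bone marrow, and in wild-type arrays 9 were called higher and 11 lower (limma). Of the 24 genes, 4 reached the filter level in 1 tissue only. The higher genes included Il7r, the interleukin 7 receptor of lymphoid progenitors, by 5.37 ± 0.18 in knockout and 5.15 ± 0.18 in wild-type arrays, and Cd93, by 2.72 ± 0.12 and 3.25 ± 0.12 in knockout and wild-type arrays. Fgd5, a gene used to mark stem cells in mice, lay between 3.604 and 4.09 on the bone marrow arrays and between 6.72 and 6.88 on the fetal liver arrays, so it entered the test through fetal liver. Of 18 tested signal transducers, 9 were called higher and 0 lower in knockout arrays, and 10 were called higher and 0 lower in wild-type arrays (limma). Called or not, 7 were negative in knockout and 4 in wild-type arrays. Over all tested genes 27.1% were called higher and 36.6% lower in knockout, and 26.8% were called higher and 39.2% lower in wild-type arrays. Sh2b3, the adaptor LNK that restrains cytokine receptors, was higher by 1.64 ± 0.09 in knockout and 1.89 ± 0.09 in wild-type arrays.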

How the data were processed

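The authors deposited linear-scale intensities made with RMA, per the submitters' processing notes, with no version named there. RMA evens out shifts that most genes share and compresses differences of dim probe sets. Their log2 was used here. Of 45101 probe sets, 34958 are assigned 1 gene, 932 several, and 9211 are unnamed here.

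Each of the 18194 genes was represented by its brightest probe set, and 13136 genes reaching a log2 level of 5 on 2 arrays were tested. All 8 arrays entered a linear model of the 4 groups in limma 3.58.1 under R 4.3.3 (4 residual and 4.48 prior degrees of freedom), two-sided, with Benjamini-Hochberg adjustment over all genes tested and a threshold of 0.05. The p-values cover only the spread between pools, and the number of arrays limits the precision. The fit was tested on simulated data, where, among 13136 genes, 46.9% of genes changed 1.5-fold and 91.3% of those changed 2-fold were recovered for the bone marrow comparison, and 47.8% and 91% for the fetal liver comparison. Recovery under this adjustment depends on the share of genes changed, which is not stated here. These values therefore do not give the power for a single receptor gene.

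Same-numbered arrays come from different mice, and their deviations did not correlate in bone marrow (r = -0.00356) or fetal liver (r = -0.0617), so the numbers do not pair them. The members and gene lists were chosen with earlier results of these data known. All members are named. From the other lists, mainly called genes with a large moderated t were named, with ligands of the receptors for their role. Myct1, Esam, Ly9, Cd84, Cd244a, Tie1, Gp9, Pik3r1 and Pecam1 were named after their values were seen. So were Cdh5, Robo4, Alas2 and Epor, as ends of a range. Itga2b was named although Tubb1, among other megakaryocyte markers, had a lower adjusted p in bone marrow (0.0068, limma). Alternatives covered filters, probe sets, normalization, variance models, the arrays fitted and a replicate block.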

Additional observations from a re-analysis of the deposited data

Results flagged for a closer look

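For 2 receptor genes the genotype difference had opposite signs in the tissues, with no overlap between the arrays of the genotypes in either tissue. Over all tested genes, the arrays of the genotypes did not overlap for 43.1% in bone marrow and 50.1% in fetal liver. The share that did so in both tissues with opposite signs was not counted, so nothing is read from the number of receptor genes. Cd34 was higher in knockout bone marrow and lower in knockout fetal liver, a difference between the tissues of 0.34 (log2). Flt3 was lower in knockout bone marrow and higher in knockout fetal liver, a difference of -0.4052 (log2). Tested as an interaction, neither passed after adjustment (adjusted p = 0.279 for Cd34 and 0.26 for Flt3, limma), and neither gene was called in either tissue.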

How the results depend on the processing

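Slamf1 in bone marrow was the 1 receptor gene called by genotype, and the count of called receptors was 0 with the mean of all probe sets, with every probe set its own feature (adjusted p = 0.056, limma), with only the 4 bone marrow arrays (adjusted p = 0.126) and with the replicate block (adjusted p = 0.0574), and 0 to 1 when 1 array was left out. The replicate block changed no other call of a receptor. The fetal liver count was 0 in all alternatives, and the tissue counts lost 1 gene, Procr, where a level of 6 was required. The interaction count was 0 to 1 when 1 array was left out, with Slamf1 between -1.26 and -0.80 (log2).

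Signs turned only for differences that were not called, and the cause was not tested. Slamf1 in fetal liver was 0.22 with the mean of all probe sets and -0.040 to 0.030 when 1 array was left out, and between the knockout tissues it was -0.062 after repeated quantile normalization and -0.0022 to 0.077. The Cd48 interaction was 0.035 after that normalization, 0.0346 with centred medians, 0.0176 with a pseudocount of 16, and -0.22 to 0.21 when 1 array was left out. In bone marrow, leaving out 1 array gave -0.061 to 0.0039 for Procr, -0.45 to 0.15 for Tek and -0.020 to 0.052 for Cxcr4. It gave -0.11 to 0.32 for Cd48 in fetal liver and -0.16 to 0.038 for Kit between the wild-type tissues.

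Over all genes, the bone marrow count of 54 calls became 97 with trend and robust moderation, 109 with array weights, 89 with the pseudocount, 34 with the block, 3 with 4 arrays and 2 to 76 without 1 array. The fetal liver count of 42 became 409, 9, 157, 4 and 4 under the same settings in that order, 14 without the filter, 25 over probe sets and 5 to 1010 without 1 array. The interaction count of 12 became 68 with trend and robust moderation, 6 with weights, 41 with the pseudocount, 6 with the block, 5 without the filter, 19 after repeated quantile normalization and 5 to 80 without 1 array. The tissue counts of 8375 in knockout and 8663 in wild-type became 17899 and 19139 over probe sets, where more features are tested.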
